A study of Mus musculus with 15 samples.

Results

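*Fpr1*, *Fpr2*, *C5ar1*, *Ltb4r1* and *Ptafr* encode the formyl peptide receptors FPR1 and FPR2, the C5a receptor, the leukotriene B4 receptor BLT1 and the platelet-activating factor receptor. They were chosen by name, with earlier results of these data known, as the chemoattractant receptors for peptides, complement C5a and lipid mediators. They are 5 of the 38924 genes in the deposited files. All 5 were among the 14967 genes with at least 1 cpm (a count scaled to library size) in at least 2 libraries, which were the genes tested. The RNA came from the brains of wild type C57BL/6J mice, males per the study's methods, that were 12 months old. One set of mice ate chow (CD) and the other a Western diet (WD) from 2 months of age. After perfusion, the CD11b+ cells without CD3e were sorted into a fraction with high CD45 (CD45hi, 4 libraries from CD-fed and 3 from WD-fed mice) and a fraction with low CD45 (CD45lo, 4 libraries on each diet). CD45hi is a surface gate that can hold several kinds of leukocytes and macrophages, and the olfactory bulb and cerebellum had been removed. The study describes its deposited counts as given by animal, and the labels do not say which CD45hi and CD45lo libraries came from the same one.

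Chemoattractant receptors are seven-transmembrane proteins on myeloid cells that couple mainly to inhibitory G proteins, and a gradient of their ligand steers the cell. FPR1 and FPR2 bind N-formylated peptides, which bacteria and damaged mitochondria release, and FPR2 also binds host ligands such as annexin A1 and serum amyloid A. The C5a receptor reads the small fragment cut from complement C5. BLT1 and the platelet-activating factor receptor read lipids that phospholipases and lipoxygenases or acyltransferases make from membranes. Neutrophils and monocytes are known for high levels of FPR1, FPR2 and BLT1. The C5a and platelet-activating factor receptors are known on microglia as well as on other myeloid cells.

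Expected counts summed to between 11951412 and 17912272 in a library. At that depth the smallest value treated as measurable, 3 counts, was worth 0.156 to 0.282 cpm, which covers counting error only. On a principal component analysis replicate 4 of CD CD45hi and replicate 1 of WD CD45hi stood apart from the other libraries on the second component (93.0 and -134.7), and results without both are given where they differ. Of 9 microglia markers, all 9 were lower in CD45hi than in CD45lo cells of CD-fed mice and 6 in WD-fed mice, with sums of 7122 to 8818 cpm in CD45hi and 15152 to 18898 cpm in CD45lo libraries. Of 12 neutrophil markers 6 were higher in CD45hi cells on each diet, as were 4 and 3 of 7 classical monocyte markers, 4 of 4 patrolling monocyte markers, 5 of 5 border-associated macrophage markers and 1 of 4 dendritic cell markers on CD and WD. Of 6 lymphocyte and NK markers tested, 1 and 3 were higher, and of 5 markers of other brain cells none was higher and 1 was lower on CD (edgeR glmTreat over 1.5-fold, FDR under 0.05 throughout). The CD45hi libraries thus held transcripts of several cell types, and in such bulk RNA fewer cells of a type and less RNA per cell cannot be told apart.

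On mm10, in the GENCODE M21 annotation, *Fpr1* (ENSMUSG00000045551) lies on the minus strand at chr17:17876471-17883940 and *Fpr2* (ENSMUSG00000052270) on the plus strand at chr17:17887824-17893952. The genes point away from each other with 3883 bases and no annotated gene between their starts. *C5ar1* (ENSMUSG00000049130) is at chr7:16246743-16259540 on the minus strand, *Ltb4r1* (ENSMUSG00000046908) at chr14:55765962-55768494 and *Ptafr* (ENSMUSG00000056529) at chr4:132564067-132582683, both on the plus strand. The coding sequence of *Fpr1*, *Ltb4r1* and *Ptafr* lies in 1 exon and that of *C5ar1* in 2. *Fpr2* overlaps *Fpr3* on the same strand, and *Fpr3* had at most 5 counts in any library. The expected counts of *Ptafr* were fractional in 15 of 15 libraries, which marks reads that RSEM divided with other genes, and those of the other 4 genes were whole in every library.

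The bases just before the transcription start of the 4 genes that carry the differences described below are shown 5′ to 3′ on each gene's own strand, from RefSeq on GRCm38.p6, the sequence of mm10. They are chr17:17883941-17884189 for *Fpr1*, chr17:17887574-17887823 for *Fpr2*, chr7:16259339-16259512 for *C5ar1* (cut where an exon of *C5ar1* begins further upstream) and chr4:132563817-132564066 for *Ptafr*. The *C5ar1* stretch precedes the RefSeq start but lies inside the gene as annotated in GENCODE M21, which starts at 16259540 on this strand. Capitals mark matches on either strand to GAGGAA, a core of the sites of the myeloid factor PU.1, or to TTNNGNAA, the half-sites of C/EBP factors. No match of the first motif overlapped one of the second.
Fpr1: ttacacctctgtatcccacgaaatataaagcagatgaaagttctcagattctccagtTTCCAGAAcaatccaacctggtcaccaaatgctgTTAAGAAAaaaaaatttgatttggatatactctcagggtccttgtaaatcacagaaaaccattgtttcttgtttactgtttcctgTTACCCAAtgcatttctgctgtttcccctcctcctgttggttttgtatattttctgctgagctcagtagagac
Fpr2: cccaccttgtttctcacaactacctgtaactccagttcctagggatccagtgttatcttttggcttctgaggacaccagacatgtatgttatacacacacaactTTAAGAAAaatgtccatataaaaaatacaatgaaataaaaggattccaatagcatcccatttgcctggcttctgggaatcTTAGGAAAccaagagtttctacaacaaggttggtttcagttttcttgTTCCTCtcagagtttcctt
C5ar1: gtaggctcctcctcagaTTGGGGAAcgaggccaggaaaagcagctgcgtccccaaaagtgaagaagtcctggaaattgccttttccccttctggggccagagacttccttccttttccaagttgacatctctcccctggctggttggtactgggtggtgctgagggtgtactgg
Ptafr: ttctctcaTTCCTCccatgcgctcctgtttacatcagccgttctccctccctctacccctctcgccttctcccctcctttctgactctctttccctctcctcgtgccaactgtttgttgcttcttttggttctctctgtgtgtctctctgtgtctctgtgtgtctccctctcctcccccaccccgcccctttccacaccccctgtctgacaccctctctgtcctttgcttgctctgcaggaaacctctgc

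In the 250 bases before the RefSeq start, *Fpr1* held 3 C/EBP matches, *Fpr2* held 2, *C5ar1* held 1, and *Ltb4r1* and *Ptafr* held 0. The PU.1 core was found 1 time each in *Fpr2*, *Ltb4r1* and *Ptafr* and 0 times in *Fpr1* and *C5ar1*. The AP-1 motif TGANTCA had 0 matches in all 5. Of all 32851 RefSeq promoters with this window, 36.8% held the C/EBP motif, 23.3% the PU.1 core and 6.75% the AP-1 motif, so that single matches are common, and a match describes letters and not a bound site.

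*Fpr1*, the high-affinity formyl peptide receptor, was low in CD45lo cells, at 0 to 22 counts a library, and higher but uneven in CD45hi cells. In CD-fed mice the CD45hi libraries measured 16.6, 38.8, 0.528 and 22.3 cpm in replicates 1 to 4 and the CD45lo libraries 0.824, 0.830, 0.799 and 1.25 cpm. In WD-fed mice the CD45hi libraries measured 39.4, 3.76 and 15.9 cpm and the CD45lo libraries 1.11, 0.668, 0.439 and 0 cpm. Replicate 3 of CD CD45hi, with 6 counts, lay below every CD45lo library of its diet, while the other 3 lay above them all, and in WD-fed mice the fractions did not overlap. The means were 19.6 ± 15.8 cpm in CD45hi and 0.925 ± 0.216 cpm in CD45lo cells of CD-fed mice (n = 4 each, SD), and 19.7 ± 18.1 cpm (SD, n = 3) and 0.555 ± 0.465 cpm (SD, n = 4) in WD-fed mice. The log2 fold change was 4.39 in CD-fed mice (SE 1.10, edgeR's FDR by glmTreat = 0.0331), or 20.96-fold, and 5.12 in WD-fed mice (SE 1.17, edgeR's FDR by glmTreat = 0.0160), or 34.8-fold.

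These *Fpr1* calls did not hold in every alternative. With limma-voom the log2 fold change was 3.49 on CD (FDR = 0.325) and 5.10 on WD (FDR = 0.123). In CD-fed mice the edgeR's FDR by glmTreat became 0.0580 to 0.110 without replicate 2 or 4 of CD45hi or without any 1 of replicates 1 to 4 of CD45lo. In WD-fed mice it became 0.0593 without replicate 1 of CD45hi, where the log2 fold change was 4.12, 0.0578 without replicate 3 of CD45lo, and 0.0559 without both libraries that stood apart. The direction stayed the same in each case.

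*Fpr2*, the formyl peptide receptor with the wider set of ligands, had the same order of the fractions. In CD-fed mice the CD45hi libraries measured 26.3, 14.7, 1.85 and 15.5 cpm and the CD45lo libraries 0.882, 0.934, 0 and 3.01 cpm. In WD-fed mice they measured 13.9, 10.7 and 74.8 cpm against 2.36, 1.26, 0.220 and 0.0758 cpm. Replicate 3 was again the lowest CD45hi library of CD-fed mice and lay below the highest CD45lo library, whereas on WD replicate 3, with 975 counts, was far above the other CD45hi libraries, and no libraries of the fractions overlapped. The means were 14.6 ± 9.997 and 1.21 ± 1.28 cpm in CD-fed mice (n = 4 each, SD), and 33.1 ± 36.1 (SD, n = 3) and 0.979 ± 1.06 cpm (SD, n = 4) in WD-fed mice. The fitted difference on WD was a log2 fold change of 5.07 (SE 1.29, edgeR's FDR by glmTreat = 0.0295), or 33.6-fold, and on CD it was 3.59 (SE 1.17, edgeR's FDR by glmTreat = 0.130), which did not pass and ran from 3.14 without replicate 1 of CD45hi to 4.57 without replicate 4 of CD45lo.

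In WD-fed mice the call of *Fpr2* was lost without replicate 3 of CD45hi, where the log2 fold change was 3.64 (edgeR's FDR by glmTreat = 0.125), and without replicate 2, 3 or 4 of CD45lo (FDR 0.0746, 0.0936 and 0.0801), and with limma-voom (FDR = 0.0556). Without replicate 1 of CD45lo the log2 fold change was 5.99. In CD-fed mice *Fpr2* passed with DESeq2 (FDR = 0.00506) and with the newer quasi-likelihood form of edgeR 4 (FDR = 0.0206).

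**Figure D1:**
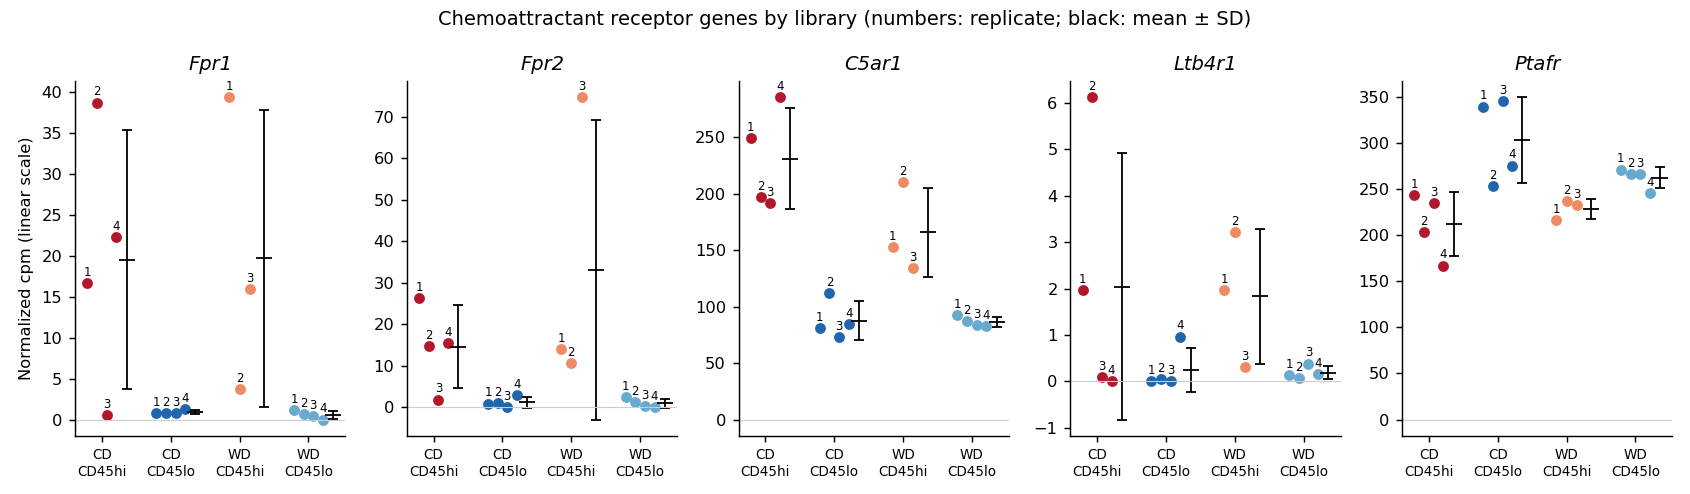
TMM-normalized cpm (linear y axis, a separate scale for each gene) of the 5 receptor genes in the 15 libraries, by diet and CD45 fraction; coloured points are libraries with their replicate number, and the black mark and bar are the mean and SD of the group. *C5ar1* was at 134 to 285 cpm in CD45hi and 72.8 to 112 cpm in CD45lo libraries, whereas *Fpr1* in CD CD45hi ran from 0.528 to 38.8 cpm.

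*C5ar1*, whose product binds the anaphylatoxin C5a, was well expressed in both fractions and higher in CD45hi cells. In CD-fed mice the CD45hi libraries measured 249, 197, 192 and 285 cpm and the CD45lo libraries 81.0, 112, 72.8 and 84.6 cpm. In WD-fed mice the CD45hi libraries measured 153, 210.2 and 134 cpm and the CD45lo libraries 92.7, 86.9, 83.4 and 83.0 cpm. On each diet every CD45hi library was above every CD45lo library. The means were 231 ± 44.8 and 87.7 ± 17.2 cpm on CD (n = 4 each, SD) and 166 ± 39.6 (SD, n = 3) and 86.5 ± 4.49 cpm (SD, n = 4) on WD. The log2 fold change on CD was 1.40 (SE 0.196, edgeR's FDR by glmTreat = 0.00339), or 2.63-fold, and it passed in all 28 alternatives tried, with values of 1.28 to 1.52 when 1 library was left out.

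On WD the log2 fold change of *C5ar1* was 0.94 (SE 0.207), or 1.92-fold, which was not shown to exceed 1.5-fold (edgeR's FDR by glmTreat = 0.150) but differed from 0 (edgeR's FDR by glmQLFTest = 0.00703). It passed with DESeq2 and with glmQLFTest when the 1.5-fold limit was set afterwards. The interaction of diet and fraction for *C5ar1* was -0.46 on the log2 scale (SE 0.284, 95% interval -1.02 to 0.10, edgeR's FDR by glmQLFTest = 0.630), so that the differences on CD and WD were not shown to be unequal.

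*Ltb4r1*, the receptor that draws leukocytes to leukotriene B4, was the lowest of the 5 and mostly at the limit of measurement. In CD-fed mice its CD45hi libraries held 30, 74, 1 and 0 counts and its CD45lo libraries 0, 1, 0 and 17. In WD-fed mice the CD45hi libraries held 21, 48 and 4 counts and the CD45lo libraries 2, 1, 7 and 2. Libraries with 3 counts or fewer were 2 of 4 CD45hi and 3 of 4 CD45lo on CD, and 0 of 3 and 3 of 4 on WD, and the fractions overlapped on both diets. The means were 2.05 ± 2.87 and 0.254 ± 0.474 cpm on CD (n = 4 each, SD) and 1.83 ± 1.46 (SD, n = 3) and 0.185 ± 0.137 cpm (SD, n = 4) on WD. The log2 fold changes of 2.96 (SE 1.71) and 3.23 (SE 1.80) did not pass (edgeR's FDR by glmTreat = 0.547 and 0.396), so that no difference was shown at these counts and this spread. With 1 library left out the value on CD ran from 1.41 (without replicate 2 of CD45hi) to 6.26 (without replicate 4 of CD45lo), and on WD from 2.55 to 3.85.

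*Ptafr*, the receptor for platelet-activating factor, was the only 1 of the 5 with a lower mean in CD45hi than in CD45lo cells. In CD-fed mice the CD45hi libraries measured 243, 203, 235 and 167 cpm and the CD45lo libraries 339, 253, 346 and 275 cpm. In WD-fed mice they measured 216, 237 and 232 cpm against 271, 266, 266 and 245 cpm. No CD45hi library reached any CD45lo library of the same diet. The means were 212 ± 34.6 and 303 ± 46.3 cpm on CD (n = 4 each, SD) and 228 ± 10.8 (SD, n = 3) and 262 ± 11.5 cpm (SD, n = 4) on WD.

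The log2 fold change of *Ptafr* was -0.52 on CD (SE 0.151) and -0.20 on WD (SE 0.163), and neither was shown to exceed 1.5-fold (edgeR's FDR by glmTreat = 0.905 and 1). For any change the edgeR's FDR by glmQLFTest was 0.0432 on CD and 0.505 on WD. The result on CD passed 0.05 in 13 of 28 alternatives and in 6 of the 15 fits with 1 library left out, with FDR values of up to 0.143 without replicate 3 of CD45lo, and its log2 fold change stayed between -0.61 and -0.42. It missed 0.05 without any 1 of replicates 2 and 4 of CD CD45hi, replicates 1, 3 and 4 of CD CD45lo and replicates 1 to 4 of WD CD45lo, and without both libraries that stood apart, and it also missed 0.05 with DESeq2's size factors, with no filter on low counts and in a fit of the 2 groups alone (edgeR's FDR by glmQLFTest = 0.0541, 0.0680 and 0.105).

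Counted together, 2 of the 5 receptor genes exceeded 1.5-fold between the fractions in CD-fed mice (*Fpr1* and *C5ar1*), against 3.98% of all genes tested, and 2 in WD-fed mice (*Fpr1* and *Fpr2*), against 5.18%. All 4 of these calls were higher in CD45hi cells. For any change the counts were 3 on CD (*Fpr1*, *C5ar1* and *Ptafr*), against 8.03% of all genes, and 3 on WD (*Fpr1*, *Fpr2* and *C5ar1*), against 9.12%. The libraries of the fractions did not overlap for 2 of the 5 on CD, against 16.5% of all genes, and for 4 of the 5 on WD, against 23.4%. The median log2 fold change of the 5, beside 0.04 on CD and 0 on WD over all genes tested, was the value of *Ltb4r1* on both diets, 2.96 and 3.23, which rests on few counts and on CD moved to 1.41 and 6.26 with 1 library left out.

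**Figure D2:**
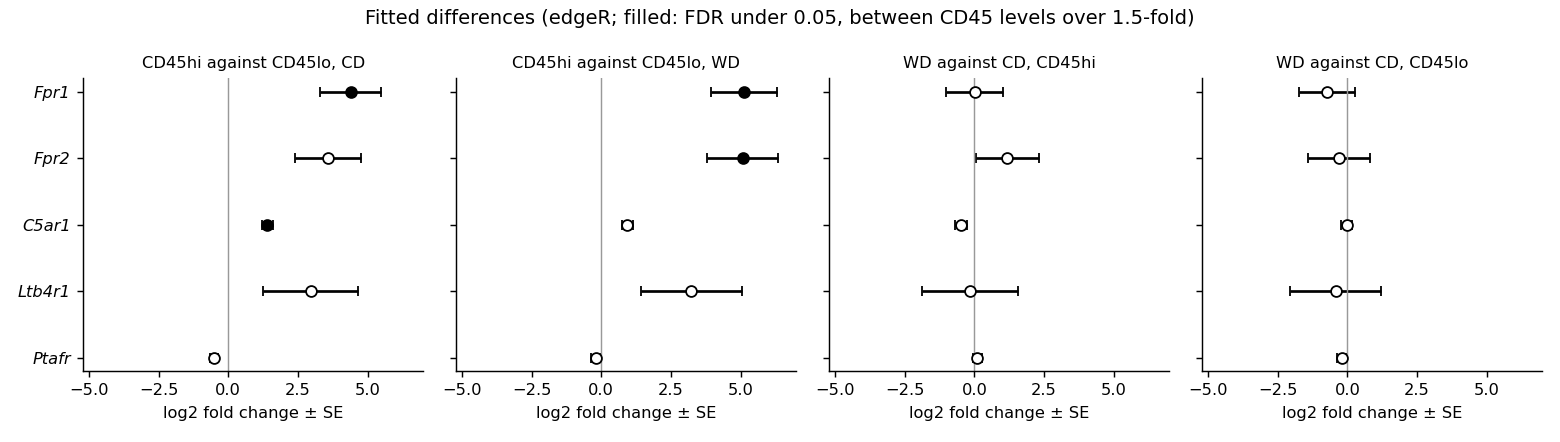
Fitted log2 fold changes (x axis) of the 5 receptor genes with their standard errors as bars, for the 2 comparisons of CD45hi with CD45lo cells and the 2 comparisons of WD with CD; filled points passed an FDR of 0.05. The filled points are *Fpr1* (4.39) and *C5ar1* (1.40) on CD and *Fpr1* (5.12) and *Fpr2* (5.07) on WD, and no point is filled between diets.

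Per length, in the deposited TPM (transcripts scaled to length and to the library), *C5ar1* and *Ptafr* led in every group and changed places between the fractions. In CD CD45hi cells the mean level of *C5ar1* was 136 TPM and that of *Ptafr* 84.5 TPM, with *C5ar1* higher in 4 of 4 libraries and no overlap. In CD45lo cells *Ptafr* led, with 165 TPM against 71.2 TPM on CD and 144 TPM against 70.8 TPM on WD, again with no overlap and in 4 of 4 libraries each. The within-library ratio of *C5ar1* to *Ptafr* was 1.22 to 2.56 (median 1.49) in CD CD45hi, 0.316 to 0.664 (median 0.408) in CD CD45lo and 0.468 to 0.511 (median 0.498) in WD CD45lo libraries. In WD CD45hi cells the levels overlapped, at 92.3 TPM for *C5ar1* and 85.6 TPM for *Ptafr*, and the ratio was 0.866 to 1.32 (median 1.06).

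*Fpr2* came next and *Fpr1* after it by mean TPM in all 4 groups, but their libraries overlapped in each. The mean levels were 25.6 TPM for *Fpr2* and 23.5 TPM for *Fpr1* in CD CD45hi, and 58.2 TPM and 22.3 TPM in WD CD45hi cells. In CD45lo cells they were 2.86 and 1.52 TPM on CD and 2.24 and 0.938 TPM on WD. In replicate 3 of WD CD45hi the level of *Fpr2*, 136 TPM, was above those of *C5ar1* (77.3 TPM) and *Ptafr* (89.3 TPM) in the same library. *Ltb4r1* was lowest by mean in every group, at 2.41, 0.405, 1.91 and 0.285 TPM in CD CD45hi, CD CD45lo, WD CD45hi and WD CD45lo cells, and overlapped *Fpr1* in all but WD CD45hi.

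**Figure D3:**
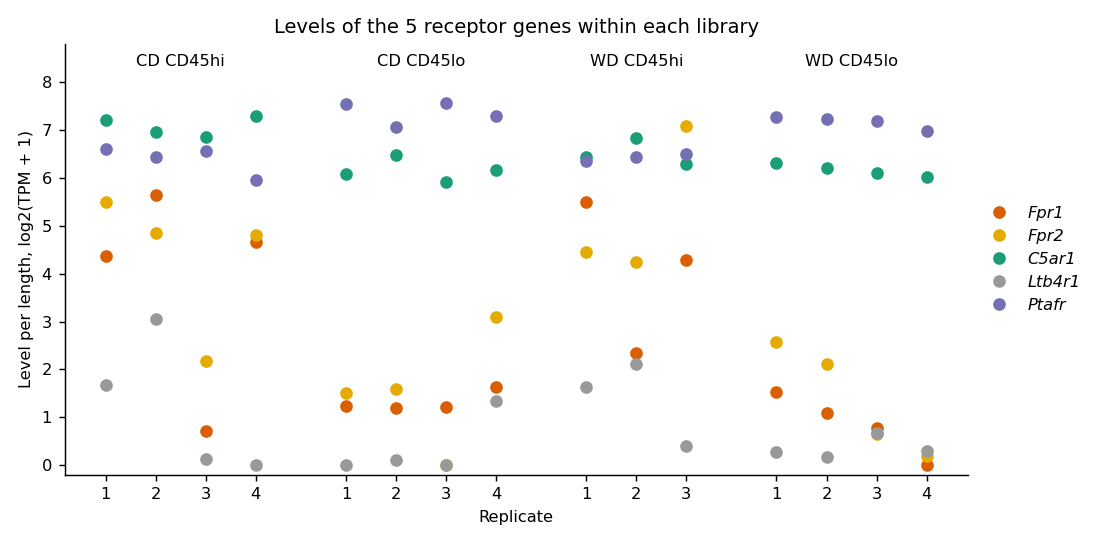
Level per length, as log2(TPM + 1) (y axis), of the 5 receptor genes in each library (x axis, replicate number within the 4 groups); each colour is a gene. *Ptafr* is the highest point in all 8 CD45lo libraries, *C5ar1* in the 4 CD CD45hi libraries, and *Fpr2* in replicate 3 of WD CD45hi.

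The receptors also differed in how evenly the CD45hi libraries carried them. Over the 7 CD45hi libraries the SD of log2 cpm was 2.13 for *Fpr1*, 1.57 for *Fpr2* and 2.11 for *Ltb4r1*, against 0.377 for *C5ar1* and 0.190 for *Ptafr*. The median over the 8389 genes with at least 10 cpm on average in these libraries was 0.723. Levels were not matched, since the median level of these genes was 40.3 cpm. *C5ar1* and *Ptafr* averaged 203 and 219 cpm, and *Fpr1* and *Fpr2* 19.6 and 22.5 cpm. *Ltb4r1*, at 1.95 cpm, was below 10 cpm, where counting error widens the spread. Over the 8 CD45lo libraries the SD was 0.181 for *C5ar1* and 0.185 for *Ptafr*, against a median of 0.259 over 7923 genes. Here too levels differed, at 87.1 cpm for *C5ar1* and 283 cpm for *Ptafr* against a median of 38.9 cpm.

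Marker levels of other leukocytes moved with the fractions as the formyl peptide receptors did, and their part in the result was not tested. The 12 neutrophil markers, none at 0 throughout a group, summed to 1771 to 4384 cpm in CD45hi and 653 to 1444 cpm in CD45lo libraries on CD, and to 1443 to 2648 and 759 to 996 cpm on WD. *Ly6g*, which defines neutrophils, had means of 2.86 ± 3.51 and 0.589 ± 0.434 cpm on CD (n = 4 each, SD) and did not pass between the fractions (edgeR's FDR by glmTreat = 0.776), and on WD they were 0.843 ± 1.46 (SD, n = 3) and 0.798 ± 0.743 cpm (SD, n = 4). The fitted *Ly6g* value on WD was small (log2 fold change 0.09, edgeR's FDR by glmTreat = 1). The 7 classical monocyte markers, none at 0 throughout a group, summed to 544 to 1111 cpm in CD45hi and 73.2 to 171 cpm in CD45lo libraries on CD, and to 584 to 866 and 47.0 to 147 cpm on WD. Sums in the 7 CD45hi against the 8 CD45lo libraries were 139 to 532 against 1.89 to 7.47 cpm for patrolling monocyte, 616 to 2337 against 53.6 to 203 cpm for border-associated macrophage and 116 to 288 against 18.3 to 35.7 cpm for dendritic cell markers. The lymphocyte and NK markers summed to 11.8 to 102 against 0 to 0.571 cpm, with *Cd3e* and *Cd3g* at 0 in CD45hi cells of WD-fed mice and in both CD45lo groups.

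Within the CD45hi fraction of CD-fed mice, replicate 3 had the lowest sums of neutrophil (1771 cpm) and classical monocyte markers (544 cpm) and the lowest *Fpr1* and *Fpr2*. Its sums of patrolling monocyte (139 cpm) and dendritic cell markers (136 cpm) were also the lowest, and that of microglia markers (8816 cpm) the highest. Its border-associated macrophage sum and its lymphocyte and NK sum were not the lowest. The other 3 libraries had neutrophil sums of 3808 to 4384 cpm. In CD-fed mice *Fpr1* had the same order as the neutrophil sums, and *Fpr2*, highest in replicate 1, did not. In WD-fed mice *Fpr2* had the same order as the neutrophil sums, and *Fpr1* did not. Replicate 2 had the lowest neutrophil sum (1443 cpm), *Fpr1* (3.76 cpm) and *Fpr2* (10.7 cpm), beside the highest classical monocyte sum (866 cpm). Replicate 1 had the highest *Fpr1* (39.4 cpm) beside the lowest classical monocyte sum (584 cpm), and replicate 3 the highest *Fpr2* (74.8 cpm) beside the highest neutrophil sum (2648 cpm). With 4 and 3 libraries a correlation within a diet was not computed.

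**Figure D4:**
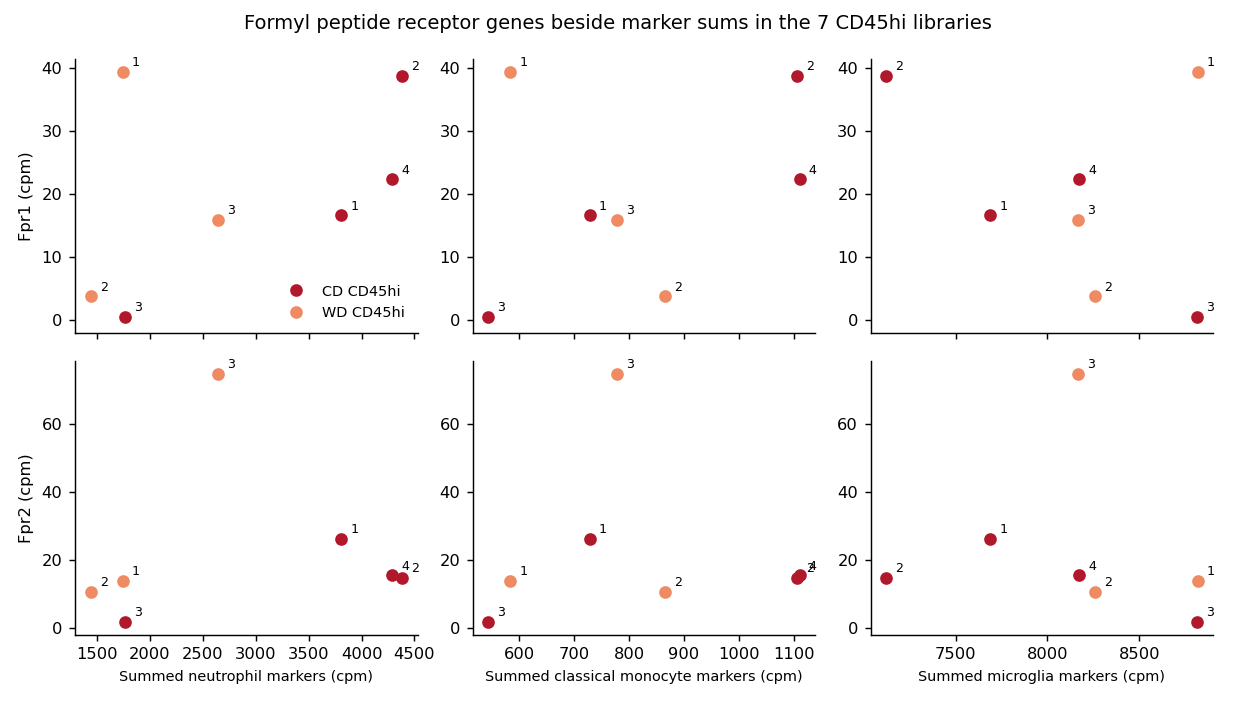
Normalized cpm of *Fpr1* (upper row) and *Fpr2* (lower row) against the summed cpm of the neutrophil, classical monocyte and microglia marker lists (x axes) in the 7 CD45hi libraries, with replicate numbers; red points are CD-fed and orange points WD-fed mice. Replicate 3 of CD CD45hi is near the lower left for neutrophil and monocyte markers, and replicate 1 of WD CD45hi combines 39.4 cpm of *Fpr1* with a neutrophil sum of 1747 cpm.

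Between the diets none of the 5 receptor genes passed in CD45hi cells, where 0.254% of all genes tested did, or in CD45lo cells, where 0% did (0 genes by edgeR glmQLFTest, 123 with an unadjusted p under 0.05, and 4 by DESeq2). The largest difference relative to its error was that of *C5ar1* in CD45hi cells, 166 cpm on WD against 231 cpm on CD, a log2 fold change of -0.48 (SE 0.210, 95% interval -0.89 to -0.07, edgeR's FDR by glmQLFTest = 0.250), and the libraries of the diets overlapped. *Fpr2* was at 33.1 against 14.6 cpm in CD45hi cells (log2 fold change 1.18, SE 1.13, edgeR's FDR by glmQLFTest = 0.630), and without replicate 3 of WD CD45hi the value was -0.25. For *Fpr1* in CD45hi cells the log2 fold change was 0.01, with a 95% interval from -1.997 to 2.02. For *Ptafr* it was 0.11 (95% interval -0.21 to 0.42), which is far narrower.

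In CD45lo cells *C5ar1* changed by -0.02 (95% interval -0.40 to 0.36) and *Ptafr* by -0.21 (95% interval -0.50 to 0.08) on the log2 scale between WD and CD. The intervals of *Fpr1* (-2.70 to 1.26), *Fpr2* (-2.45 to 1.85) and *Ltb4r1* (-3.62 to 2.77) were wide at their low counts. The interaction of diet and fraction passed for none of the 5, against 0.00668% of all genes tested, with edgeR's FDR by glmQLFTest values from 0.630 for *C5ar1* to 0.993 for *Ltb4r1*. The differences between the fractions were therefore not shown to depend on diet for any of these receptors, including *Fpr2* and *C5ar1*, which passed on 1 diet each.

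Of 12 related receptor genes, 5 were tested, and none was called higher or lower in CD45hi cells on either diet, beside 3.98% of all genes tested on CD and 5.18% on WD, so that 0 of 5 does not set the list apart. *C3ar1*, the receptor for the complement fragment C3a, was high in both fractions, at 827 ± 39.0 and 838 ± 46.5 cpm on CD (n = 4 each, SD), with log2 fold changes of -0.02 (SE 0.126) on CD and 0.24 (SE 0.136) on WD (edgeR's FDR by glmTreat = 1 and 1). *C5ar2*, the second C5a receptor, ran at 44.1 ± 13.2 against 67.4 ± 9.68 cpm on CD (n = 4 each, SD), a log2 fold change of -0.61 (SE 0.324, edgeR's FDR by glmTreat = 0.767), where *C5ar1* was higher in CD45hi cells. *Cmklr1*, the chemerin receptor, had log2 fold changes of -0.43 (SE 0.192) on CD and -0.74 (SE 0.210) on WD, the latter with no overlap between 223 ± 12.4 (SD, n = 3) and 372 ± 14.0 cpm (SD, n = 4, edgeR's FDR by glmTreat = 0.388). The cysteinyl leukotriene receptor *Cysltr1* was at 76.3 and 84.6 cpm on CD, and *Cysltr2* had at most 94 counts. The other 7 did not pass the filter on low counts, and 4 of them, *Fpr-rs3*, *Fpr-rs4*, *Fpr-rs6* and *Fpr-rs7*, chosen after their values were seen, had 0 counts in all 15 libraries, which allows up to 0.282 cpm.

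Of 7 genes for peptide ligands, 2 were tested, and none was called on CD and 1 on WD, beside 3.98% and 5.18% of all genes. *Anxa1*, which encodes annexin A1, a ligand of FPR2 that restrains leukocyte entry, was at 64.1 ± 56.9 cpm in CD45hi (SD, n = 3) and 7.11 ± 4.63 cpm in CD45lo cells (SD, n = 4) on WD, and the fitted log2 difference was 3.17 (SE 0.783, edgeR's FDR by glmTreat = 0.0302). On CD it was at 114 ± 89.1 and 18.6 ± 13.5 cpm (n = 4 each, SD), a log2 fold change of 2.61 (SE 0.734, edgeR's FDR by glmTreat = 0.0786), and the fractions did not overlap on either diet. The WD call was lost without replicate 3 of CD45hi, where the log2 fold change was 2.15 (edgeR's FDR by glmTreat = 0.151), and without replicate 1, 3 or 4 of CD45lo (FDR 0.0720, 0.0938 and 0.0833), with limma-voom (FDR = 0.205) and with the 2 groups alone (FDR = 0.0553). On CD *Anxa1* passed with DESeq2 (FDR = 0.00101), with the edgeR 4 form (FDR = 0.0244), with the 1.5-fold limit set afterwards (FDR = 0.0357) and without replicate 3 of CD45hi (FDR = 0.0477), and its log2 fold change was 1.959 without replicate 2 of CD45hi. *Camp*, the other gene tested, which encodes the FPR2 ligand cathelicidin, was not called. *Hc*, which encodes complement C5 itself, had 0 counts in all 15 libraries, and *Hc* is named here after its values were seen.

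Of 13 genes for lipid mediator enzymes, all tested, 2 were higher in CD45hi cells on each diet, and 1 was lower on CD and none on WD, beside 3.98% and 5.18% of all genes tested in either direction. *Cyp4f18*, a cytochrome P450 that oxidizes leukotriene B4, was at 16.1 ± 11.2 against 0.661 ± 0.636 cpm on CD (n = 4 each, SD), a log2 fold change of 4.59 (SE 0.963, edgeR's FDR by glmTreat = 0.0102), and its log2 fold change on WD was 4.99 (SE 1.01, edgeR's FDR by glmTreat = 0.00682). *Pla2g7*, which encodes the plasma platelet-activating factor acetylhydrolase, was at 79.5 ± 42.9 against 4.84 ± 2.25 cpm on CD (n = 4 each, SD), with log2 fold changes of 4.03 (SE 0.596, edgeR's FDR by glmTreat = 0.000569) on CD and 3.42 (SE 0.598, edgeR's FDR by glmTreat = 0.00283) on WD. Both genes kept their calls in all 28 alternatives on each diet. Their log2 fold changes without 1 library reached 5.33 and 3.88 for *Cyp4f18* (without replicate 1 of CD CD45lo and replicate 2 of WD CD45hi) and 2.79 for *Pla2g7* (without replicate 2 of WD CD45hi).

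*Lpcat2*, the acyltransferase that makes platelet-activating factor, was lower in CD45hi cells of CD-fed mice, as was the mean of the receptor gene *Ptafr*. It was at 507 ± 43.5 against 969.6 ± 51.1 cpm (n = 4 each, SD), a log2 fold change of -0.94 (SE 0.109, edgeR's FDR by glmTreat = 0.0172), with no overlap. On WD it was at 584 ± 29.1 (SD, n = 3) and 914 ± 86.3 cpm (SD, n = 4), with a log2 fold change of -0.65 (SE 0.118) that was not shown to exceed 1.5-fold (edgeR's FDR by glmTreat = 0.455) but passed with DESeq2 and with the limit set afterwards. The CD call was lost without replicate 3 of CD45lo (edgeR's FDR by glmTreat = 0.0639). *Alox5* and *Alox5ap*, named after their values were seen as the lipoxygenase and its activating protein that start leukotriene synthesis, had log2 fold changes of 0.76 (SE 0.556) and 0.62 (SE 0.184) on CD and were not called (edgeR's FDR by glmTreat = 0.788 and 0.716).

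Of 26 genes that carry signals from these receptors, 2 were higher in CD45hi cells on each diet and none was lower, a share near the 3.98% and 5.18% of all genes tested and so no result about the list. *Fgr*, a Src family kinase of myeloid cells, was at 58.2 ± 42.2 against 4.93 ± 1.79 cpm on CD (n = 4 each, SD) and had log2 fold changes of 3.56 (SE 0.486, edgeR's FDR by glmTreat = 0.000306) and 3.55 (SE 0.500, edgeR's FDR by glmTreat = 0.000407) on CD and WD, and its calls held in all 28 alternatives. Without replicate 4 of CD CD45hi its value on CD was 2.91. *Rgs18*, a regulator that shortens G protein signals, had log2 fold changes of 4.62 (SE 1.07, edgeR's FDR by glmTreat = 0.0198) and 4.36 (SE 1.10, edgeR's FDR by glmTreat = 0.0295), the latter at 5.29 ± 3.32 (SD, n = 3) against 0.253 ± 0.190 cpm (SD, n = 4). The calls of *Rgs18* were lost without replicate 1 or 2 of CD CD45lo on CD, and without replicate 1 of CD45hi or any 1 of replicates 1 to 4 of CD45lo on WD (edgeR's FDR by glmTreat from 0.0524 to 0.101), without both libraries that stood apart (FDR = 0.0646), with the 2 groups alone (FDR = 0.0605) and with limma-voom (FDR = 0.0672). No gene of the ligand, enzyme, signalling or related receptor lists was called between the diets or in the interaction.

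The genes whose log2 cpm followed each receptor most closely over the 7 CD45hi libraries are given as a description, since with 7 libraries and 8388 or 8389 genes high values arise in any case and diet groups are mixed. For *Fpr1* they were *Lamb2* (r = 0.976, rho = 0.857), *Amd1* (r = 0.976, rho = 0.929) and *Ap1g2* (r = 0.968, rho = 0.750). For *Fpr2* they were *Isyna1* (r = 0.987, rho = 0.964), *Golga3* (r = 0.973, rho = 0.857) and *D1Ertd622e* (r = 0.962, rho = 0.964). *C5ar1* was nearest to *Fermt3* (r = 0.976, rho = 0.964), *Stambp* (r = 0.970, rho = 0.964) and *Lima1* (r = 0.968, rho = 0.964). *Ltb4r1* was nearest to *Wasl* (r = 0.979, rho = 1), *Rab10* (r = 0.969, rho = 0.964) and *Zfp704* (r = 0.966, rho = 1). *Ptafr* was nearest to *Pkn2* (r = 0.981, rho = 0.964), *Nipa2* (r = 0.973, rho = 0.714) and *Zfp266* (r = 0.971, rho = 0.786). Without the 2 libraries that stood apart on the principal component analysis, r was 0.882 to 0.994 over these 15 pairs. The 5 libraries left were among the 7 used to pick the genes, so that these values are no test of the patterns. The same 2 libraries were left out for every receptor and were not chosen by its level. No gene was shared between the 5 lists of 3.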

How the data were processed

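RNA from 15 libraries of sorted brain CD11b+ cells was sequenced from poly(A) libraries on one of 2 Illumina instruments, and which library ran on which is not given in the sources used here. The authors aligned reads to mm10 and quantified genes with RSEM 1.2.12, and deposited an expected count per gene, which need not be whole. They also deposited TPM per gene, in which the authors' software divided by transcript length and scaled to the library. The annotation release and strand setting are not given in the sources used here. Reads shared by similar genes are divided by estimate, which affects *Ptafr*.

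Expected counts were rounded to whole numbers, and the 14967 genes that reached 1 cpm in 2 or more libraries were tested. edgeR 4.0.16 in R 4.3.3 was run with TMM scaling and a quasi-likelihood fit of the 4 groups. Within a diet, glmTreat tested CD45hi against CD45lo beyond 1.5-fold, and glmQLFTest tested the diets and the interaction, at a Benjamini-Hochberg FDR of 0.05 over all genes tested. Intervals are the log2 fold change ± 1.96 SE. TPM was used only to order genes by level, within libraries and by group mean. Scripts were tested on simulated data.

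The receptors and gene lists were chosen with earlier results of these data known. The text names the 5 receptors, related receptors with a group mean of at least 1 cpm, and from each other pathway list the up to 4 called genes with the largest change in WD-fed mice and at least 10 cpm, or all called genes where 5 or fewer were called. For each receptor it names the 3 genes of at least 10 cpm with the highest Pearson r of log2 cpm (prior count 2) over the 7 CD45hi libraries. Promoter sequences came from RefSeq on GRCm38.p6. The alternatives were DESeq2 1.42.0, limma-voom (limma 3.58.1), other scalings and filters, a fit of the compared groups alone, blocks by replicate number, and each library left out in turn. No replicate pair of a group was a duplicate, with chi-square per degree of freedom of 20.6 or more.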

Additional observations from a re-analysis of the deposited data

Results flagged for a closer look

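Dixon's test at the 95% level was applied to the highest and lowest library of each group of 4, and 2 of the 15 groups tested held a library apart from the rest, where chance gives about 1 in 20. *Fpr1* was at 1.25 cpm in replicate 4 of CD CD45lo, against 0.799 to 0.830 cpm in the other 3 libraries of that group. *Ltb4r1* was at 0.965 cpm in the same replicate, against 0 to 0.0519 cpm in the others. These values are 22 and 17 counts, and *Fpr2*, at 3.01 cpm, was also highest in that library.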

How the results depend on the processing

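Of the 5 receptors, 2 were called between the fractions in CD-fed mice, and 1 (*C5ar1*) was called with limma-voom, with the replicate block and with the block by file numbers, and 1 to 2 when a library was left out. In WD-fed mice 2 were called, 0 with limma-voom and with the replicate block, 1 (*Fpr2*) with the block by file numbers and without both libraries that stood apart, and 0 to 2 when a library was left out. Replicate numbers marked no known pairing, and between the diets the replicate block joined same-numbered libraries of different mice. The mean correlation of same-numbered libraries was 0.0156 by titles and 0.0245 by file numbers, and 0 of 7 pairs exceeded 0.1. By titles 3 and by file numbers 4 of 7 libraries correlated best with their own number. Whether same-numbered libraries came from the same animal was not tested. With the replicate block and the block by file numbers the FDR of *Fpr1* was 0.167 and 0.242 on CD and 0.112 and 0.0880 on WD, that of *Fpr2* on WD 0.152 with the replicate block, where only the block by file numbers kept the call, and that of *Rgs18* 0.0870 and 0.113 on CD and 0.140 and 0.283 on WD. For *Anxa1* it was 0.0141 and 0.0328 on CD and 0.0764 and 0.0629 on WD, for *Lpcat2* on CD 0.0505 and 0.0633, and for any change 0.0931 and 0.103 in *Ptafr* on CD and 0.0676 and 0.0583 in *C5ar1* on WD.

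Directions turned only where no call was made. Between diets in CD45hi cells, *Fpr1* was -0.12 with the edgeR 4 form, -0.92 without both libraries apart, and -0.99 to 0.58 with 1 library left out. *Fpr2* was -0.25 to 1.63 with 1 left out. *Ltb4r1* was 1.49 with limma-voom, 0.11 with the replicate block and -0.84 to 1.41 with 1 left out. In CD45lo cells *Fpr2* was 0.000601 with limma-voom and -1.22 to 0.68 with 1 left out, *C5ar1* was -0.0983 to 0.117 with 1 left out, and *Ltb4r1* was 1.09 with limma-voom, 1.25 with the replicate block and -1.04 to 2.87 with 1 left out. In the interaction *Fpr1* was -0.20 without both libraries apart and -0.27 to 1.31 with 1 left out, and *Ltb4r1* was -0.21 without both, -1.42 with the replicate block, -1.58 with the block by file numbers and -3.03 to 1.83 with 1 left out. The cause was not tested.

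Over all genes, 595 were called between the fractions on CD (507 higher in CD45hi), 1784 with DESeq2 (1251 higher) and 1162 with the 1.5-fold limit set afterwards. On WD 775 were called (600 higher), 2296 with DESeq2 (1403 higher), 1335 with the later limit, 398 with the replicate block, 353 with the block by file numbers, and 513 to 920 with 1 library left out. With limma-voom 404 of 542 on CD and 420 of 598 on WD were higher, and its all-gene median of log2 fold changes was -0.22 and -0.27. Between diets in CD45hi cells 38 genes were called, 1003 with DESeq2, 252 with the edgeR 4 form, 66 with the stricter filter, 0 with the 2 groups alone (843 at an unadjusted p under 0.05), 1 with glmTreat, 2 with the replicate block, 290 without both libraries apart and 1 to 286 with 1 left out. In the interaction 1 was called, 188 with DESeq2, 3 without both, 0 to 6 with 1 left out, and 0 with limma-voom, the edgeR 4 form and the replicate blocks. *Ltb4r1* had 3 counts or fewer in 2 of 4 CD and 0 of 3 WD CD45hi libraries and in 3 of 4 CD45lo libraries on each diet, where depth cannot resolve its level.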
